A study of Homo sapiens with 7 samples.

Results

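The matrix metalloproteinases (MMPs), the ADAM and ADAMTS proteases and their tissue inhibitors (TIMPs) were followed in HK-2 cells, an immortalised epithelial line from human kidney proximal tubule. The members were every row of the deposited table whose gene symbol is MMP, ADAM or ADAMTS followed by digits alone, or TIMP1 to TIMP4. This gave 65 of 33694 genes, of which 22 were MMPs, 20 ADAMs, 19 ADAMTSs and 4 TIMPs. Cells that the labels call GLUT2-KD had received 50 nM siRNA against GLUT2, the glucose transporter encoded by SLC2A2 (siGLUT2, replicates 2 to 4). Cells that the labels call WT had received 50 nM scrambled siRNA (scrambled, replicates 1 to 4). All were lysed 96 h after transfection, so both groups share the transfection itself, and the labels describe the libraries as biological replicates of 1 cell line. The p-values therefore measure the spread between these 7 libraries.

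MMPs are zinc proteases made as inactive precursors, secreted or held at the membrane, and together they cut collagens, gelatin, laminins and many other matrix proteins. ADAMs are membrane-anchored relatives that shed the outer parts of growth factors, receptors and adhesion molecules, although some members lack a working catalytic site. ADAMTSs are secreted and bind the matrix, where they cut proteoglycans such as versican, process procollagens and act on microfibrils. TIMPs bind the active site of these enzymes and block it. In injured kidney tubules the balance of these genes is known to shift as the basement membrane is remodelled.

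Total counts were between 5881366 and 6914302 in siGLUT2 libraries and between 5654957 and 8455963 in scrambled libraries. Genes with at least 1 count numbered 13433 to 13891 in siGLUT2 libraries and 14844 to 15036 in scrambled libraries. Replicates of siGLUT2 also differed more among themselves, with a spread of genes counted 10 to 50 times that was 8.67 times that of sampling, against 4.29 times in scrambled libraries. The target SLC2A2 was counted 0 times in each siGLUT2 library, against 13, 13, 7 and 17 times in the scrambled libraries (adjusted p = 0.0085 by edgeR's quasi-likelihood test). An exact two-sided permutation test of its level over 35 assignments gave p = 0.0571. Every siGLUT2 library lay below every scrambled one. No assignment could place siGLUT2 lower, so the test could give no lower value for a fall. Of 13 proximal tubule markers only GGT1, PAX8, DPP4 and SLC5A2 were counted often enough to be tested, and the brush-border receptor LRP2 was at 0 in every library, while all 6 epithelial markers were tested. The mitochondrial share of counts was 7.04% to 7.56% in siGLUT2 libraries and 4.91% to 5.53% in scrambled libraries. The part of that share and of the spread between replicates in the results was not tested.

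After siGLUT2, several collagen-degrading and matrix-processing enzymes rose together with TIMP2, while the epithelial enzyme MMP7, the proteoglycanase ADAMTS15, the membrane enzyme MMP24 and the inhibitor TIMP1 fell. Of the 65 members 24 had a count of 0 in every library, 12 had some reads but too few to be tested and 29 were tested. Adjusted p-values come from edgeR's quasi-likelihood test and were corrected by Benjamini and Hochberg's method across 12404 tested genes. At a threshold of 0.05, 13 of the 29 changed, 9 higher and 4 lower. Over all tested genes 28.3% changed, 13.9% higher and 14.4% lower. For 15 of the 29 every siGLUT2 library lay on one side of every scrambled library, as it did for 35.1% of all tested genes. The tested members had a median log2 fold change of 0.49, against -0.0029 for the tested genes as a whole, and 9 of the 13 changes were at least 2-fold. The filter on low counts can be passed through either group. A gene high in only 1 group therefore enters the tested set because of that group. ADAMTS6, counted among the 9 that rose, entered in this way through siGLUT2. Fold changes below are log2 siGLUT2 over scrambled ± SE, and levels are CPM, a gene's counts relative to the library total after edgeR's TMM scaling, mean ± SD with n = 3 siGLUT2 and n = 4 scrambled libraries. A change in bulk RNA cannot tell fewer cells of a type from less RNA per cell.

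**Figure D1:**
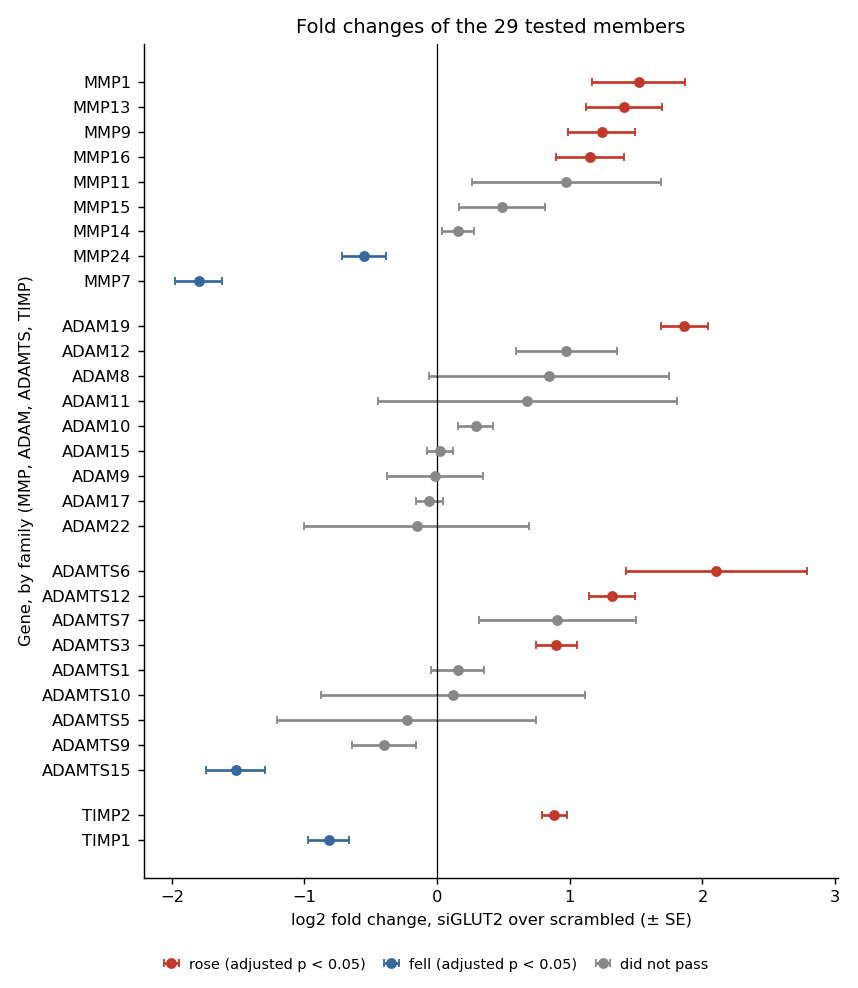
Log2 fold change of siGLUT2 over scrambled (x axis, point ± SE) for each of the 29 tested members (y axis, grouped as MMPs, ADAMs, ADAMTSs and TIMPs). Red points rose, blue points fell and grey points did not pass an adjusted p of 0.05. Rises outnumber falls among MMPs and ADAMTSs, 8 of the 9 tested ADAMs are grey, and the 2 TIMPs lie on opposite sides of 0.

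Both tested collagenases rose. MMP1, interstitial collagenase (ENSG00000196611, GRCh38 chr11:102789920-102798160, minus strand), had 22.9, 23.3 and 18.8 CPM in siGLUT2 libraries, against 9.95, 7.2, 2.28 and 11.1 CPM in scrambled libraries. Every siGLUT2 library lay above every scrambled one, and scrambled replicate 3 was the lowest. The log2 fold change was 1.52 ± 0.35 (adjusted p = 0.00226), and 1.21 without that library. MMP13, collagenase 3 (ENSG00000137745, chr11:102942995-102955734, minus strand), had 20.1, 12.7 and 23.0 CPM in siGLUT2 libraries, against 6.87, 7.32, 7.34 and 6.35 CPM in scrambled libraries. Its scrambled libraries were close together and the siGLUT2 libraries more scattered, without overlap (1.41 ± 0.29, adjusted p = 0.00067). The third collagenase, MMP8, had no read in any library.

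Of the gelatinases, which degrade denatured collagen and basement membrane collagen, MMP9 rose. MMP9 (ENSG00000100985, chr20:46008908-46016561, plus strand) had 24.4, 40.5 and 51.1 CPM in siGLUT2 libraries, against 10.8, 13.4, 20.4 and 21.2 CPM in scrambled libraries. The siGLUT2 libraries were widely scattered and the lowest stood just above the highest scrambled library, so the groups did not overlap (1.24 ± 0.25, adjusted p = 0.000761). An antisense gene, SLC12A5-AS1, shares 430 exonic bases with MMP9, and without a stated strand setting the reads there cannot be told apart. MMP2, the other gelatinase, had 0 reads in all 7 libraries. Among stromelysins, which cut proteoglycans and activate other MMPs, MMP3 was counted 23 times in siGLUT2 replicate 4 and 0 times in every other library, and MMP10 was at 0. MMP11 was at 3.6 ± 1.81 CPM in siGLUT2 and 1.83 ± 0.962 CPM in scrambled libraries, with overlap (adjusted p = 0.336). MMP11 shares 218 exonic bases with the far more counted CHCHD10 on the other strand.

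MMP7 moved the other way. This matrilysin, a small secreted enzyme of epithelia that lacks the hemopexin domain of most MMPs, had 16.03, 17.0 and 13.9 CPM in siGLUT2 libraries, against 54.7, 50.7, 53.2 and 59.6 CPM in scrambled libraries (ENSG00000137673, chr11:102520508-102530753, minus strand). The replicates of each group were close to each other and the groups lay far apart. MMP7 thereby fell 3.48-fold (-1.80 ± 0.17, adjusted p = 8.33e-08). In the same libraries, epithelial keratin transcripts were lower in siGLUT2, with KRT7 at 19.4 ± 1.33 CPM in siGLUT2 and 87.6 ± 9.98 CPM in scrambled libraries, while EPCAM was at 99.4 ± 23.8 CPM in siGLUT2 and 98.6 ± 6.8 CPM in scrambled libraries. Of the 6 epithelial markers KRT7, KRT8, KRT18 and KRT19 fell and EPCAM and CDH1 did not pass, and their summed level was 635 to 767 CPM in siGLUT2 libraries, against 1128 to 1240 CPM in scrambled libraries. Their part in the MMP7 result was not tested.

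MMP1, MMP7 and MMP13 lie in one run of 9 MMP genes within 435 kb of chromosome 11, all on the minus strand and with no other protein-coding gene annotated inside the run (GENCODE release 29, GRCh38). In order from low to high coordinate the genes are MMP7, MMP20, MMP27, MMP8, MMP10, MMP1, MMP3, MMP12 and MMP13. MMP7 at one end fell, MMP1 and MMP13 rose, MMP3 had reads in 1 library and the 5 others had none. The direction of change was therefore not shared along the run.

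**Figure D2:**
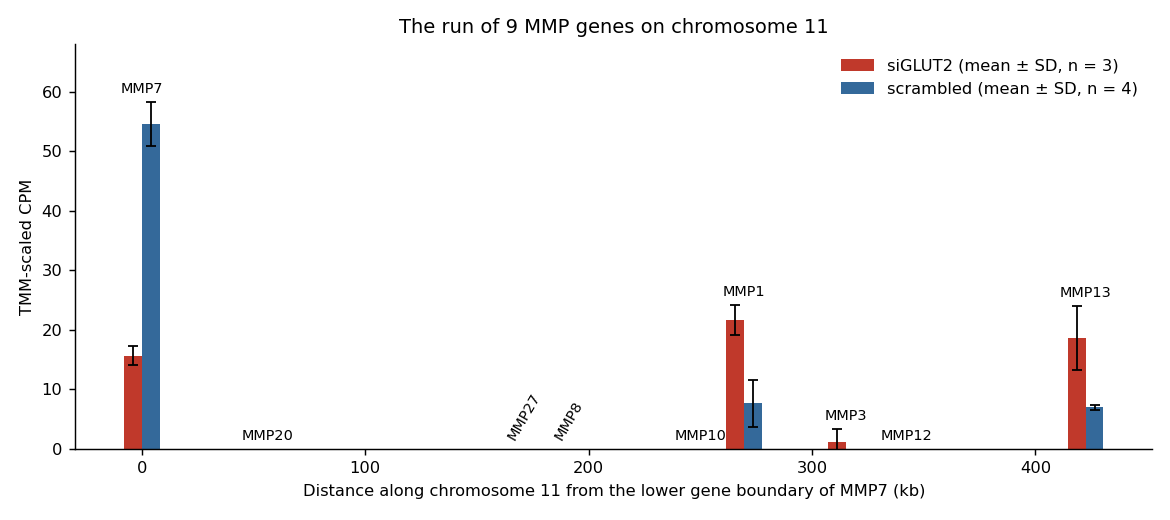
Mean CPM ± SD (y axis) of the 9 MMP genes on chromosome 11 in siGLUT2 libraries (red, n = 3) and scrambled libraries (blue, n = 4), placed by their distance from MMP7 in kb (x axis). MMP7 is lower and MMP1 and MMP13 are higher in siGLUT2, 5 genes are at 0 in both groups, and the MMP3 bar comes from 1 library.

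Promoters of the members were searched for short motifs known from this gene family. A RefSeq promoter (GRCh38.p14, 250 bases before to 50 after the start) was matched for 38 of the 65 members. Within the run these were MMP7, MMP20, MMP27, MMP8 and MMP10, of which MMP7 alone changed, so promoters of rising and falling genes of the run were not compared. Each was searched on both strands for TGANTCA and for TATAAA, the TATA box. TGANTCA, with any middle base, is a loose form of the site that AP-1 factors such as FOS and JUN bind in many MMP promoters. TGANTCA was present in 7.71% and TATAAA in 11.5% of all 35116 RefSeq promoters of this length. Among the 38 members 4 held TGANTCA (MMP7, MMP10, MMP20 and ADAMTS12) and 8 held TATAAA. These counts take a word at any position and on either strand, so not every TATAAA lies where a TATA box would. In ADAM21 it lies at 39, after the start, and in ADAMTS10 at -78 on the other strand. Of the 7 changed members with a promoter, ADAMTS12 and MMP7 held TGANTCA, the one higher and the other lower in siGLUT2. Within the run 3 promoters carry both motifs. TGANTCA lies at -67 and TATAAA at -30 in MMP7, at -67 and -31 in MMP10, and at -112 and -72 in MMP20, and MMP10 and MMP20 had no reads. ADAMTS12 holds TGANTCA at -84. The middle base of the word is G in MMP7 and A in MMP10, MMP20 and ADAMTS12. MMP7 and ADAMTS12 are shown as the changed members with TGANTCA, and MMP10 as a gene of the run with both motifs at nearly the places they have in MMP7. The sequences follow 5′ to 3′ in the direction of transcription, with both motifs in capitals, from chr11:102530698-102530997 (minus strand), chr11:102780579-102780878 (minus strand) and chr5:33891941-33892240 (minus strand).
MMP7: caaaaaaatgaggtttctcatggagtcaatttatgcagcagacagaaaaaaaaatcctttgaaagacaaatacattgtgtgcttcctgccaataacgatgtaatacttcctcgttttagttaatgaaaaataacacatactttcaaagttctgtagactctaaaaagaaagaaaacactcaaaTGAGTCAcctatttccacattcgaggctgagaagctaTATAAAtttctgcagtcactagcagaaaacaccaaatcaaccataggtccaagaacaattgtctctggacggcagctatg
MMP10: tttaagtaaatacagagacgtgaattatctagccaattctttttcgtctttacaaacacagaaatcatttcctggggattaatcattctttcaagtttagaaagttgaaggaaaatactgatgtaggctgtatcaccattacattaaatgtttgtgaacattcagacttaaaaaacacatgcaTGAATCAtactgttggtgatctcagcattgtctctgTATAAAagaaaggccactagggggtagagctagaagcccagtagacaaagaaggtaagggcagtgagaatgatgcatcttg
ADAMTS12: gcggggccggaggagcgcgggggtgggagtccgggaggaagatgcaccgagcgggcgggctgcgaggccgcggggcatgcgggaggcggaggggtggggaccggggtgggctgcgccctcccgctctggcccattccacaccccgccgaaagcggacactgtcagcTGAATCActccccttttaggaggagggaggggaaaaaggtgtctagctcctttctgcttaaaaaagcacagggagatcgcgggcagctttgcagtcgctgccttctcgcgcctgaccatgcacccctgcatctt
A match of letters is a description, and nothing about binding was measured.

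Membrane-type MMPs, which sit on the cell surface and cut matrix and other proteases there, changed in both directions, with 1 of 4 tested higher and 1 lower. MMP14 (MT1-MMP, the activator of MMP2) was at 120, 140 and 98.7 CPM in siGLUT2 libraries, against 102, 111, 107 and 109 CPM in scrambled libraries. These values overlapped, and the 95% interval of the log2 fold change was -0.09 to 0.40 (adjusted p = 0.35). MMP16 (MT3-MMP, ENSG00000156103) had 26.9, 27.4 and 22.5 CPM in siGLUT2 libraries, against 6.87, 12.7, 11.5 and 14.99 CPM in scrambled libraries. It rose in every siGLUT2 library relative to all scrambled ones (1.16 ± 0.26, adjusted p = 0.00158). MMP24 (MT5-MMP, known mainly from neurons) had 33.1, 28.4 and 26.6 CPM in siGLUT2 libraries, against 40.9, 40.5, 44.4 and 45.9 CPM in scrambled libraries. The groups did not overlap (-0.55 ± 0.17, adjusted p = 0.0158), but the adjusted p was 0.0542 without scrambled replicate 4. MMP24 shares 799 exonic bases with the antisense gene MMP24OS. MMP15 (MT2-MMP) was at 15.7 ± 3.92 CPM in siGLUT2 and 11.2 ± 4.66 CPM in scrambled libraries, with overlap (adjusted p = 0.281). MMP17 and MMP25 had 4 and 5 reads over all libraries.

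Both TIMPs with reads changed, in opposite directions. TIMP1, a secreted inhibitor of most soluble MMPs that is weak against membrane-type MMPs, had 90.4, 151 and 187 CPM in siGLUT2 libraries, against 233, 245, 272 and 258 CPM in scrambled libraries (ENSG00000102265, chrX:47582313-47586789, plus strand). The siGLUT2 libraries differed from each other, with replicate 2 the lowest, but all lay below the scrambled libraries. TIMP1 fell by 0.82 on the log2 scale (SE 0.16, adjusted p = 0.000455), and without siGLUT2 replicate 2 the log2 fold change was -0.58 (adjusted p = 4.82e-05). TIMP2, which inhibits MMPs and also takes part in the activation of MMP2 by MMP14, had 343, 295 and 363 CPM in siGLUT2 libraries, against 182, 182, 186 and 172 CPM in scrambled libraries (ENSG00000035862, chr17:78852977-78925387, minus strand). The scrambled libraries were almost alike and every siGLUT2 library was well above them (0.88 ± 0.09, adjusted p = 1.92e-07). Reads of TIMP2 per read of TIMP1, a ratio that no scaling of the library can move, were 3.79, 1.96 and 1.94 in siGLUT2 libraries, against 0.783, 0.744, 0.684 and 0.666 in scrambled libraries. TIMP1 thus had more reads than TIMP2 in each scrambled library and fewer in each siGLUT2 library. The ratio combines the rise of TIMP2 and the fall of TIMP1 in the same libraries, so it is no separate support for either. TIMP3, the matrix-bound inhibitor that also blocks ADAM17 and ADAMTSs, and TIMP4 were at 0 in all 7 libraries.

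**Figure D3:**
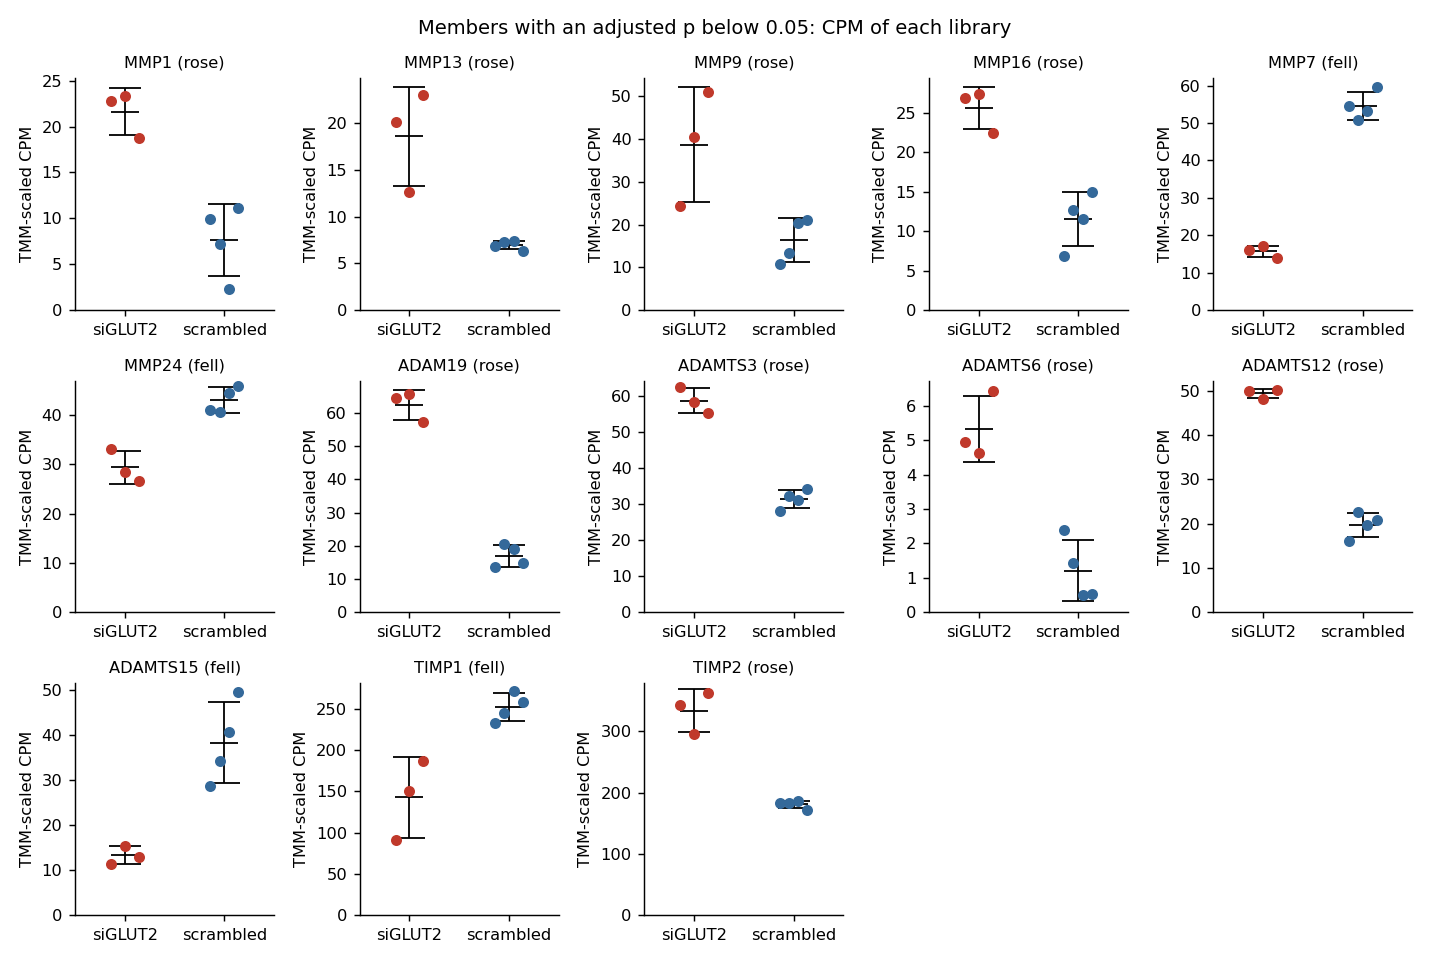
TMM-scaled CPM (y axes, from 0) of the 13 members with an adjusted p below 0.05 in the 3 siGLUT2 libraries (red, left) and the 4 scrambled libraries (blue, right), with mean and SD as black bars. In each panel the points of the 2 groups do not overlap, and the siGLUT2 points of TIMP1 and MMP9 are spread widely.

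Among the ADAMs only ADAM19 changed, of 9 tested. ADAM19 (meltrin beta, a protease that sheds neuregulins, ENSG00000135074, chr5:157395534-157575775, minus strand) had 64.5, 65.6 and 57.2 CPM in siGLUT2 libraries, against 13.7, 20.6, 19.1 and 14.8 CPM in scrambled libraries. The lowest siGLUT2 library was well above the highest scrambled one. ADAM19 rose 3.64-fold (1.86 ± 0.18, adjusted p = 7.89e-08), and 62 of its exonic bases overlap CYFIP2 on the other strand. Its substrate NRG1, neuregulin 1, rose as well and was at 191 ± 35.5 CPM in siGLUT2 and 108 ± 14.9 CPM in scrambled libraries (adjusted p = 3.11e-05). ADAM12 (meltrin alpha) had 13.98, 6.34 and 13.3 CPM in siGLUT2 libraries, against 4.62, 8.99, 5.06 and 3.88 CPM in scrambled libraries. The groups overlapped through siGLUT2 replicate 3 and scrambled replicate 2, and the adjusted p of 0.0607 became 0.0197 without the one and 0.0297 without the other.

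For the main sheddases no difference passed. ADAM17 (TACE, which releases TNF and EGF receptor ligands) had 198, 153 and 182 CPM in siGLUT2 libraries, against 196, 182, 179 and 182 CPM in scrambled libraries. The 95% interval of its log2 fold change was -0.27 to 0.15 (adjusted p = 0.712), and it shares 1323 exonic bases with IAH1 on the other strand. ADAM15 was at 156 ± 10.9 CPM in siGLUT2 and 154 ± 11.5 CPM in scrambled libraries, with an interval of -0.19 to 0.23 (adjusted p = 0.897). ADAM10, which cuts Notch receptors, APP and cadherins, had 153, 106 and 107 CPM in siGLUT2 libraries, against 92.4, 96.7, 119 and 91.4 CPM in scrambled libraries. One siGLUT2 library stood above the others and the groups overlapped (interval 0.01 to 0.57, adjusted p = 0.117). The adjusted p of ADAM10 was 0.0475 without siGLUT2 replicate 4. ADAM9 was at 7.09 ± 1.05 CPM in siGLUT2 and 7.19 ± 1.62 CPM in scrambled libraries, and its interval was wider (-0.76 to 0.74, adjusted p = 0.982). ADAM8, ADAM11 and ADAM22 had means of at most 2.10 CPM in either group and intervals more than 3 log2 units wide.

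Of 9 tested ADAMTS proteases 3 rose and 1 fell. ADAMTS12, one of the enzymes that cut cartilage oligomeric matrix protein, had 49.8, 48.1 and 50.2 CPM in siGLUT2 libraries, against 16.1, 22.5, 19.7 and 20.8 CPM in scrambled libraries (ENSG00000151388, chr5:33523535-33892192, minus strand). Its siGLUT2 libraries were nearly equal (1.32 ± 0.17, adjusted p = 6e-06). Its relative ADAMTS7 was at 4.38 ± 1.17 CPM in siGLUT2 and 2.33 ± 0.65 CPM in scrambled libraries, where the groups did not overlap but the adjusted p was 0.274. ADAMTS3 (ENSG00000156140), a procollagen N-propeptidase that also activates VEGF-C, had 62.6, 58.4 and 55.5 CPM in siGLUT2 libraries, against 28.3, 32.4, 31.1 and 34.4 CPM in scrambled libraries. All siGLUT2 libraries were higher (0.90 ± 0.15, adjusted p = 0.000104), and the other procollagen enzymes, ADAMTS2 and ADAMTS14, had no reads. ADAMTS6 (ENSG00000049192), which acts on microfibrils, had 4.95, 4.61 and 6.41 CPM in siGLUT2 libraries, against 2.38, 1.44, 0.506 and 0.529 CPM in scrambled libraries. These levels stand on 3 to 41 reads per library (2.10 ± 0.68, adjusted p = 0.0239). ADAMTS6 was tested only because its siGLUT2 libraries were high, since too few scrambled libraries reached the minimum of the low-count filter. ADAMTS10, its closest relative, was at 1.35 ± 1.18 CPM in siGLUT2 and 1.26 ± 0.734 CPM in scrambled libraries (adjusted p = 0.947). The adjusted p of ADAMTS6 was 0.0615, 0.0677 and 0.0574 without scrambled replicate 3, scrambled replicate 4 and siGLUT2 replicate 4.

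Of the 4 tested proteoglycanases 1 fell and the others did not pass. ADAMTS15, which cuts versican and aggrecan, had 11.4, 15.4 and 13.0 CPM in siGLUT2 libraries, against 28.6, 34.2, 40.6 and 49.6 CPM in scrambled libraries (ENSG00000166106, chr11:130448974-130476641, plus strand). Although the scrambled libraries were scattered, each lay above all siGLUT2 libraries (-1.52 ± 0.22, adjusted p = 1.91e-05). ADAMTS9 had 13.5, 11.7 and 13.1 CPM in siGLUT2 libraries, against 16.7, 16.8, 16.7 and 17.3 CPM in scrambled libraries. The groups did not overlap, but the difference did not pass (-0.40 ± 0.24, adjusted p = 0.229). ADAMTS1 was at 30.0 ± 3.88 CPM in siGLUT2 and 27.0 ± 5.86 CPM in scrambled libraries (adjusted p = 0.62), and ADAMTS5 was near 1 CPM in both groups. Their substrate versican, VCAN, was at 400.0 ± 19.1 CPM in siGLUT2 and 531 ± 16.6 CPM in scrambled libraries and fell (adjusted p = 0.000417).

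A pair of 7-base words, GACCTTA and ACCTTAA, had been picked by an earlier scan of these same fold changes over 3′ untranslated regions, so their presence is no separate support for any change. Among 10077 genes averaging 5 CPM or more whose longest annotated region had 50 bases or more, 1574 (15.6%) held either word. The median log2 fold change was -0.10 with a word and 0.03 without. Of 21 members scanned 4 held a word, namely ADAM19, which rose, and ADAM12, MMP14 and ADAMTS9, which did not pass. None of the 4 members that fell did. The sites are shown because ADAM19 rose while genes with a word had the lower median, each with the word in capitals, at chr5:157478509-157478537 (minus strand), chr10:126013372-126013400 (minus strand), chr14:22846416-22846444 (plus strand) and chr3:64517048-64517076 (minus strand).
ADAM19: agggaaggagaGACCTTAttccaaagcac
ADAM12: tctcttgactcACCTTAAagttcctattg
MMP14: tcccctgacatACCTTAAcctctgaactc
ADAMTS9: gcaatacctccACCTTAAtttgggtgcat

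The 36 untested members had few or no reads. Those with some reads were MMP3, MMP17, MMP19, MMP25, ADAM21, ADAM28, ADAM32, ADAMTS8, ADAMTS13, ADAMTS16, ADAMTS17 and ADAMTS18, with at most 33 reads each over the 7 libraries. ADAMTS16, a metalloprotease of the developing and adult kidney, reached this highest total with 0 reads in every siGLUT2 library, against 15, 1, 15 and 2 in scrambled libraries. ADAM28 had 5 reads in siGLUT2 replicate 2 and 0 elsewhere. The 24 members at 0 in every library were MMP2, MMP8, MMP10, MMP12, MMP20, MMP21, MMP26, MMP27, MMP28, TIMP3, TIMP4, ADAM2, ADAM7, ADAM18, ADAM20, ADAM23, ADAM29, ADAM30, ADAM33, ADAMTS2, ADAMTS4, ADAMTS14, ADAMTS19 and ADAMTS20. MMP2 and TIMP3 are genes that stromal cells of kidney make in quantity, MMP8 is an enzyme of neutrophils, and ADAM2, ADAM18 and ADAM29 are genes of testis. None of the 36 was tested, and a level of 0 reads here says only that none was detected at this depth.

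Among the genes that work with these proteases, most tested inducers of MMPs and activators of plasmin rose. In 9 lists of related genes 82 of 110 genes were tested, of which 34 rose and 11 fell, and the median of their log2 fold changes was 0.33. The changed share was 54.9%, beside 28.3% among all tested genes (13.9% higher and 14.4% lower). The lists were chosen with earlier results of these data known, so the difference between these shares may come from the choice. Of 6 tested MMP inducers and plasmin activators 5 rose. PLAU, urokinase, was at 260 ± 39.5 CPM in siGLUT2 and 80.1 ± 21.4 CPM in scrambled libraries (1.70 ± 0.16, adjusted p = 9.6e-08), and its receptor PLAUR was at 117 ± 5.95 CPM in siGLUT2 and 35.9 ± 0.92 CPM in scrambled libraries. PLAT, tissue plasminogen activator, rose by 2.45 ± 0.19 (log2), and CD44, a hyaluronan receptor that docks MMP9, by 1.11 ± 0.10. BSG, the MMP inducer basigin, was at 118 ± 10.9 CPM in siGLUT2 and 115 ± 6.23 CPM in scrambled libraries and did not pass (adjusted p = 0.843). FURIN, the convertase that removes the prodomain of ADAMs and membrane-type MMPs, rose (0.80 ± 0.15, adjusted p = 0.000246), while PCSK7 did not pass (0.15 ± 0.22, adjusted p = 0.656).

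Several known partners of ADAM17 and ADAM10 changed. Of 12 tested maturation and trafficking genes 5 rose and 2 fell, a changed share of 58.3% beside 28.3% of all tested genes. FRMD8, which stabilises the iRhom and ADAM17 complex, fell and was at 44.9 ± 8.14 CPM in siGLUT2 and 99.1 ± 14.6 CPM in scrambled libraries (-1.14 ± 0.15, adjusted p = 5.19e-06). The iRhoms RHBDF1 (0.77 ± 0.26, adjusted p = 0.0274) and RHBDF2 (0.52 ± 0.18, adjusted p = 0.0283) rose. The tetraspanins TSPAN15 and TSPAN5, which bind ADAM10, rose by 0.81 ± 0.15 and 0.90 ± 0.27 (log2), and TSPAN14, of the same group, fell by 0.35 (log2, SE 0.12). SNX9, a sorting nexin that binds ADAM9 and ADAM15, rose by 0.64 ± 0.11 (log2). Among other inhibitors and clearance genes 4 of 5 rose, beside 13.9% of all tested genes. Their log2 fold changes were 0.75 ± 0.13 for the proteoglycan SPOCK1, 0.97 ± 0.31 for the endocytic receptor LRP1, 0.42 ± 0.12 for the cystatin CST3 and 0.33 ± 0.11 for the inhibitor TFPI2. RECK, a membrane-anchored MMP inhibitor, did not pass (0.43 ± 0.22, adjusted p = 0.16).

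**Figure D4:**
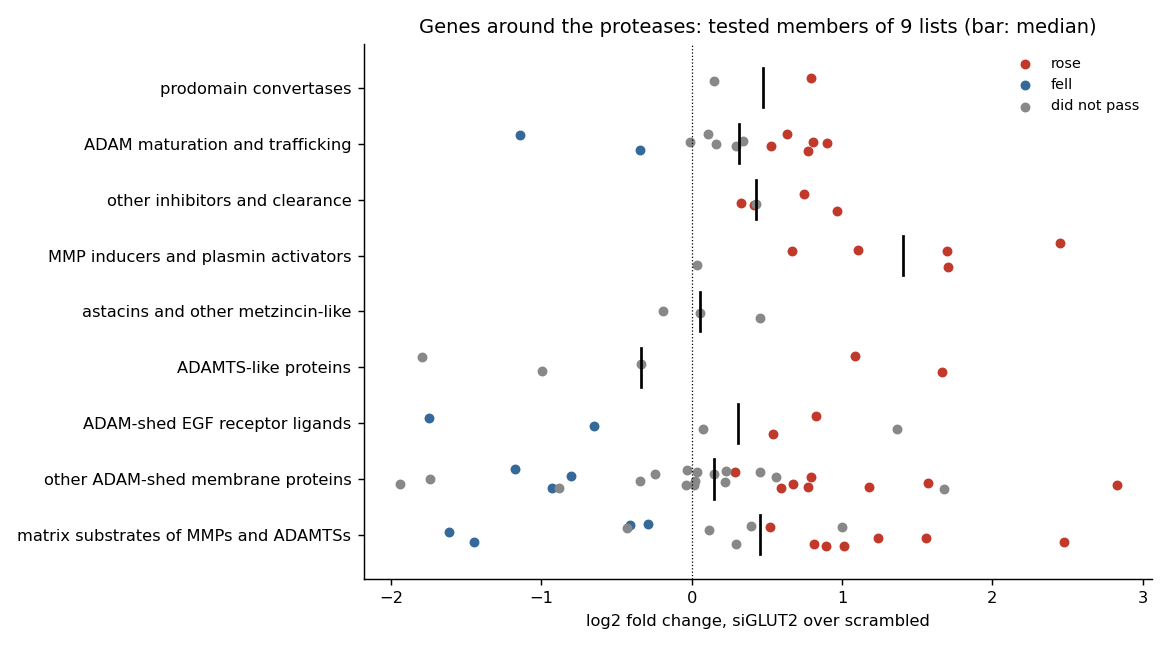
Log2 fold change of siGLUT2 over scrambled (x axis) for each tested gene of 9 lists of genes related to the proteases (rows), with red for genes that rose, blue for genes that fell, grey for genes that did not pass and a black bar at the median. The list of MMP inducers and plasmin activators has its median at 1.40, and the shed membrane proteins spread to both sides of 0.

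Substrates changed in both directions. The counts below stand beside 28.3% of all tested genes that changed, 13.9% higher and 14.4% lower. Of 6 tested EGF receptor family ligands, which ADAMs shed, NRG1 (0.83 ± 0.13) and AREG (0.54 ± 0.15) rose, while TGFA (-1.75 ± 0.27) and EREG (-0.65 ± 0.16) fell, and HBEGF was at 74.7 ± 14.8 CPM in siGLUT2 and 71.0 ± 10.5 CPM in scrambled libraries (adjusted p = 0.754). Of 27 other shed membrane proteins 8 rose and 3 fell, a changed share of 40.7%. Those with the smallest adjusted p are named, which include all 3 that fell but only 1 of the 8 that rose. APP, the amyloid precursor protein, rose by 0.77 ± 0.10 (log2), and the junction protein F11R, the Notch ligand JAG1 and the syndecan SDC4 changed by -1.18 ± 0.13, -0.93 ± 0.12 and -0.81 ± 0.12. Of 16 tested matrix substrates 7 rose and 4 fell, and FN1, fibronectin, was at 1092.5 ± 50.8 CPM in siGLUT2 and 370 ± 32.8 CPM in scrambled libraries. The log2 fold change was 2.47 ± 0.33 for tenascin TNC and -1.62 ± 0.19 for thrombospondin THBS1. Of 5 tested ADAMTS-like proteins PAPLN, papilin (1.09 ± 0.17), and THSD4 (1.66 ± 0.53) rose. THSD4, like ADAMTS6, passed the low-count filter only through its siGLUT2 libraries. The 3 tested astacins and pappalysins did not pass, at adjusted p = 0.398 for PAPPA, 0.488 for TLL1 and 0.843 for BMP1, and their lowest unadjusted p was 0.236.

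Fibroblasts and leukocytes also make several of the enzymes that rose. The summed level of 8 fibroblast and pericyte markers was 32.7 to 35.3 CPM in siGLUT2 libraries, against 8.6 to 14.5 CPM in scrambled libraries. LUM, lumican, at 23.9 ± 4.67 CPM in siGLUT2 and 1.86 ± 0.877 CPM in scrambled libraries, was the 1 marker of the 4 tested that rose, and COL3A1 was at 0 in every library. The summed level of 8 leukocyte markers was 28.1 to 29.7 CPM in siGLUT2 libraries, against 14.8 to 19.4 CPM in scrambled libraries, mostly from CD68, at 25.9 ± 1.13 CPM in siGLUT2 and 14.99 ± 2.33 CPM in scrambled libraries, while PTPRC, CD3E, MS4A1 and LYZ were at 0. All 6 endothelial markers were at 0. The part of these markers in the results was not tested.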

How the data were processed

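The transcriptome of 7 HK-2 libraries was sequenced from transcript 3′ ends at a service laboratory (single-end, 100 cycles, 125 ng of total RNA), per the labels' protocols. Raw read counts by Ensembl gene were deposited. The submitters' processing notes name STAR, HTSeq, edgeR and hg38. Strand setting, annotation release and use of molecular identifiers: not given in the sources used here. Overlapping or antisense genes therefore cannot be told apart, and reads may be PCR copies of one molecule. The SEs and 95% intervals of log2 fold changes were derived from the edgeR test, which does not give them itself. Each SE is the absolute log2 fold change divided by the square root of the test's F statistic. The interval is that SE times a t quantile on either side, so both are approximate. Splice forms were not measured, and levels were not compared between genes except in the ratio of TIMP2 to TIMP1 reads, which is not corrected for length.

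siGLUT2 was compared with scrambled over all 12404 genes kept by filterByExpr (minimum count 10, minimum total 15) with edgeR 4.0.16 in R 4.3.3: TMM factors, estimateDisp and glmQLFit with robust estimates, no covariate in glmQLFTest, Benjamini-Hochberg adjusted p below 0.05. Alternatives used DESeq2 1.42.0, limma 3.58.1 and other settings. Libraries of 1 group differed beyond sampling noise, so none was counted as a duplicate. Members and lists were chosen with earlier results of these data known. Named are SLC2A2, every changed member, the 10 members of highest CPM that did not pass, untested members with reads, up to 4 genes per list by adjusted p (or, with fewer than 2 passing, up to 2 by CPM) and genes added beside a result after their values were seen. Some genes of these lists are not reported here. Positions and 3′ regions come from GENCODE release 29 and promoters from RefSeq. In simulated counts for siGLUT2 against scrambled (12148 genes), recovery was 17 of 66 at a 1.5-fold change, 43 of 66 at 2-fold and 57 of 64 at 4-fold, and 6 of 123 calls were false. The simulation changed a far smaller share of genes than the 28.3% called in the data. It also gave both groups the same dispersion, while their spreads were 8.67 and 4.29 times that of sampling. Its rates of recovery and of false calls therefore do not carry over to the data.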

Additional observations from a re-analysis of the deposited data

How the results depend on the processing

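Of the 13 changed members 11 kept their call in each of the 20 alternatives in which they were tested, and none changed sign. The exceptions were MMP24, which lost its call with the replicate block, without scrambled replicate 4 and at an adjusted p of 0.01, and ADAMTS6, which lost it without siGLUT2 replicate 4, without scrambled replicate 3, without scrambled replicate 4 and at 0.01, and was removed by the stricter filter and by the spread correction. The number of members that rose was 8 to 10 and of those that fell 3 to 5 in all alternatives, and leaving out 1 library gave 8 to 10 and 3 to 4. At an adjusted p of 0.01, 1097 of all tested genes rose and 1167 fell. Of the related genes, 25 rose with the replicate block, 25 without scrambled replicate 1 and 24 at an adjusted p of 0.01, against 34 in the report, and 9 to 11 fell in all alternatives. No scaling of the library moved the median of all genes by 0.1 (log2). Whether the replicate numbers pair the libraries could not be settled from their deviations. Same-numbered libraries correlated by 0.0095, 0.015 and -0.0032, and all pairs lay between -0.028 and 0.015. The siGLUT2 replicates 2 and 3 correlated best with the scrambled library of their own number, and siGLUT2 replicate 4 with scrambled replicate 2. With the replicate block, 9 members rose and 3 fell, MMP24 had an adjusted p of 0.0505, and the fitted SLC2A2 log2 fold change of -6.61, which is no bound because siGLUT2 counts were 0, had an adjusted p of 0.0577. SLC2A2 was removed by the filter with thinned counts, the spread correction, the stricter filter and without scrambled replicates 1, 2 or 4. Some members near 0 changed sign. ADAM15 was at -0.024 with the replicate block and -0.028 to 0.071 with 1 library left out. ADAM9 was at 0.038 with limma-voom and with its group weights, 0.059 with the replicate block and -0.16 to 0.087 with 1 library left out. ADAM17 was at -0.15 to 0.037 with 1 library left out. The cause was not tested. Depth limits the members under about 5 CPM, where few reads carry each value.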
